A study of Homo sapiens with 4 samples.

Results

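Domain V is the part of 28S rRNA, the large rRNA of the cytosolic ribosome, that holds the peptidyl transferase centre. Its members here were the 710 consecutive positions from nt 3851 to 4560 of 28S, which are positions 11775 to 12484 of the 45S precursor RNA45SN5, a sequence with no assigned chromosome in the RefSeq gene table. They were chosen by position alone, out of 15984 listed positions and out of the 5070 of 28S. All 710 had reads in every library. In the ribosome, domain V joins amino acids into the nascent chain. Its central loop forms the catalytic site, its P loop and A loop pair with the CCA ends of the tRNAs in the P site and the A site, and its L1 stalk moves with the tRNA that leaves through the E site. In eukaryotes it also carries expansion segments, variable insertions such as ES30L and ES31L that the bacterial rRNA lacks.

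The RNA was recovered with SIRT7, a nucleolar sirtuin that removes acyl groups from lysine residues of proteins. All groups were HEK 293T cells, a transformed line from human embryonic kidney, at passages 10 to 15, in which Flag-SIRT7 was stably overexpressed, so the protein captured was the tagged one at the level of that construct. Cytosolic and nuclear fractions were each precipitated with anti-Flag gel, with 2 libraries per fraction. The comparison between them asked which parts of domain V came down with SIRT7 in each compartment. Input RNA and mock precipitates were not analysed here, so values are recovered RNA and not enrichment. The labels do not say that the libraries of a fraction came from separate cultures, and so the spread behind the p-values may be technical.

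Each value is the number of reads that covered a position, divided by the mean of the same library over all 15984 positions, and is called relative depth. Those means were 189023 to 211717 reads, and the lowest depth anywhere in domain V was 55366 reads, so counting error was small beside the spread between libraries. A read counts at every base it covers, so neighbouring positions are not independent. Other rRNAs also differed between the fractions. 18S rRNA held 25.2% and 27.5% of the depth in the cytosol against 33.7% and 34.5% in the nucleus. Its relative depth was 1.29-fold higher in the nucleus (adjusted p = 0.0252 from limma over 12 regions). A larger share for 18S leaves a smaller share for the other rRNAs. The mitochondrial 12S rRNA held 0.0179% and 0.0247% of the depth in the cytosol against 1.31% and 1.19% in the nucleus, and ITS2, a spacer of the precursor, was 3.18-fold higher in the nucleus (adjusted p = 0.00990 from limma over 12 regions). Whether 18S rRNA, mitochondrial RNA or precursors in the nuclear libraries have a part in the domain V values was not tested. Relative depth is a share of the rRNA reads and not an amount of RNA, so neither the number of cells nor the RNA per cell can be read from it.

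Domain V was divided into 8 segments at short conserved motifs found in the deposited reference sequence. Helix names (H73 and so on) are approximate labels placed by these motifs, and no secondary structure was aligned. The bounds of a segment are thus not the bounds of a helix. Strands of the L1 stalk may lie in the H73 to H75 segment and in the linker. From 5' to 3' the segments were H73 to H75 with the bases just before them (nt 3851 to 3973), the L1 stalk with ES30L (nt 3974 to 4044), a conserved linker (nt 4045 to 4087), ES31L (nt 4088 to 4168), the P loop segment (nt 4169 to 4236), H82 to H88 (nt 4237 to 4382), H89 with the peptidyl transferase loop (nt 4383 to 4455) and H90 to H93 with the A loop (nt 4456 to 4560).

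The stretch that differed most between the fractions is shown first, from nt 3974 to 4168 of 28S (precursor positions 11898 to 12092). The lower-case part before the capitals is the L1 stalk segment with ES30L, the capitals are the conserved linker, and the lower-case part after them is ES31L. The sequence is written as DNA, as in the deposited table.

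L1 stalk, linker and ES31L: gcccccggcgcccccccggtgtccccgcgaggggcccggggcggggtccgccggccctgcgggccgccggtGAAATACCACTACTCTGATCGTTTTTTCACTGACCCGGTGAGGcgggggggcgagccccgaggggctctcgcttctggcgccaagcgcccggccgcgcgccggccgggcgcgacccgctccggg

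The functional elements are shown next, since they are the places against which that stretch is read. Capitals mark the motif searched, with 10 bases on each side. The motifs, searched on the strand of the rRNA, were GAAGACC (nt 3904 to 3910), GGGGCGG (nt 4195 to 4201), GGATAAC (nt 4392 to 4398), ATGTCGG (nt 4449 to 4455), TGTTCAC (nt 4498 to 4504), TTTAGAC (nt 4530 to 4536) and CGTCGTG (nt 4537 to 4543). Each occurred once in domain V except GGGGCGG, which also occurred at nt 4011 in the L1 stalk segment and was taken in the P loop segment.

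Peptidyl transferase loop, 5' strand: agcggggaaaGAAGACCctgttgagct
P loop: gagtttgactGGGGCGGtacacctgtc
Peptidyl transferase loop: gttaccacagGGATAACtggcttgtgg
Peptidyl transferase loop, 3' strand: tgatccttcgATGTCGGctcttcctat
A loop: agcgttggatTGTTCACccactaatag
H93 and the strand beside it: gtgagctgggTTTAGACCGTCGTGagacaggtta

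Domain V as a whole took a smaller share of the nuclear reads. It held 15.8% and 15.5% of all depth in the cytosolic libraries against 11.6% and 11.7% in the nuclear ones, from 4.44% of the listed positions. Both nuclear libraries lay below both cytosolic ones. Its mean relative depth was 3.56 and 3.496 in the cytosol against 2.61 and 2.62 in the nucleus, a 1.35-fold fall (95% interval 1.19 to 1.53). The log2 difference, nucleus minus cytosol, was -0.43 (SE 0.06, n = 2 per fraction), with an adjusted p of 0.0127 from limma over 12 regions, of which 58.3% passed in either direction. Without cytosolic replicate 1 or 2 the adjusted p was 0.0961 or 0.0787 with differences of -0.42 and -0.44. The exact permutation test over 2 libraries against 2 cannot give a p below 0.333, which is the value it gave for this share and for every ratio below. The parts of 28S on either side did not pass the test: the part before domain V had a log2 difference of -0.17 (adjusted p = 0.0979 from limma) and the part after it 0.06 (0.373).

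The fall was also present relative to 28S itself, where it does not depend on the scaling between libraries. Domain V held 21.4% and 21.7% of the 28S depth in the cytosol against 18.1% and 18.4% in the nucleus. Its mean depth over that of the rest of 28S was 1.67 and 1.70 in the cytosol against 1.36 and 1.38 in the nucleus, a log2 difference of -0.30 (0.75 ± 0.02 and 0.45 ± 0.02, SD, n = 2, exact permutation p = 0.333). Set against the part of 28S after it, which includes domain VI, the ratio was 1.38 in both cytosolic libraries, against 0.996 and 0.967 in the nuclear ones.

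The depth missing from the nuclear mean was largest in 3 adjoining segments. The L1 stalk, linker and ES31L segments, 195 of 710 positions (27.5%), held 21.0% and 23.0% of the domain's depth in the cytosol against 6.25% and 5.51% in the nucleus. With those 3 segments left out, a choice made after the values were seen, the remaining positions held 16.9% and 16.7% of the 28S depth in the cytosol against 16.98% and 17.4% in the nucleus. The 28S depth in that share still includes the 3 segments. Set against 28S outside domain V, the order was the opposite, with ratios of 1.82 and 1.81 in the cytosol against 1.76 and 1.80 in the nucleus. The log2 ratio of that remainder to the rest of 28S then differed by -0.03 (0.86 ± 0.01 and 0.83 ± 0.03, SD, n = 2, exact permutation p = 0.333), about the SD of the nuclear libraries. Computed on medians over positions, that difference was -0.24, beside -0.33 for all of domain V. The remainder holds both H73 to H75, where the nuclear mean was the higher, and the 3' segments, where it was the lower.

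**Figure D1:**
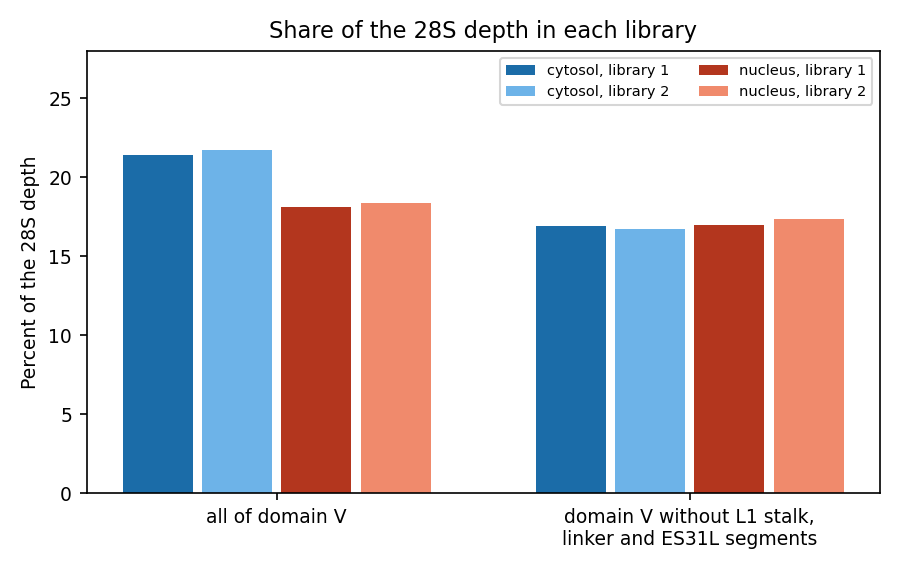
Percent of the summed 28S depth (vertical axis, from 0) that fell in all of domain V and in domain V without its L1 stalk, linker and ES31L segments; each bar is 1 library. The nuclear bars are lower on the left, at 18.1% and 18.4% against 21.4% and 21.7%, and stand at 16.98% and 17.4% against 16.9% and 16.7% on the right. The summed 28S depth includes the L1 stalk, linker and ES31L segments on the left and on the right.

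Along the domain the fractions separated and met again several times. Of 710 positions, both nuclear libraries lay below both cytosolic ones at 563 (79.3%), above them at 96 (13.5%) and overlapped with them at 51. Over the rest of 28S the corresponding shares below and above were 57.6% and 18.1%, and over 18S they were 16.9% and 76.7%. The share over all listed positions was not computed, so these counts are set only beside those of 28S and 18S. From 5' to 3', nuclear depth was lower at nt 3851 to 3890, higher at nt 3892 to 3968, lower without a break over 226 positions from nt 3972 to 4197, mixed up to nt 4263, and lower at all 297 positions from nt 4264 to the end.

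The test across windows followed this order. Domain V made 71 windows of 10 nt among 1316 tested over all rRNAs, on log2(relative depth + 0.01) in limma with Benjamini-Hochberg adjustment. Of these, 43 were lower and 6 higher in the nucleus at an adjusted p under 0.05. Over all windows tested 18.1% were lower and 37.1% higher, and over the rest of 28S 37.8% and 5.96%. The median log2 difference was -0.30 in domain V, -0.20 in the rest of 28S and 0.01 over all windows. With the scaling by median of ratios every difference moved by -0.21, and 24.6% of all windows were lower and 28.3% higher. The counts in domain V were then 54 and 0. Scaling to 28S outside domain V was a shift of 0.13, with 11.6% and 40.3% of all windows. There the counts in domain V were 31 and 7. Without cytosolic replicate 1 they were 24 and 0, and without cytosolic replicate 2 they were 31 and 0. At an unadjusted p under 0.05 in limma, the higher windows numbered 0 with the median of ratios and 5 and 6 without these replicates. The share of all windows called moved too. A change in these counts is therefore not particular to domain V. The lowest log2 difference of all 1316 windows was in domain V.

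**Figure D2:**
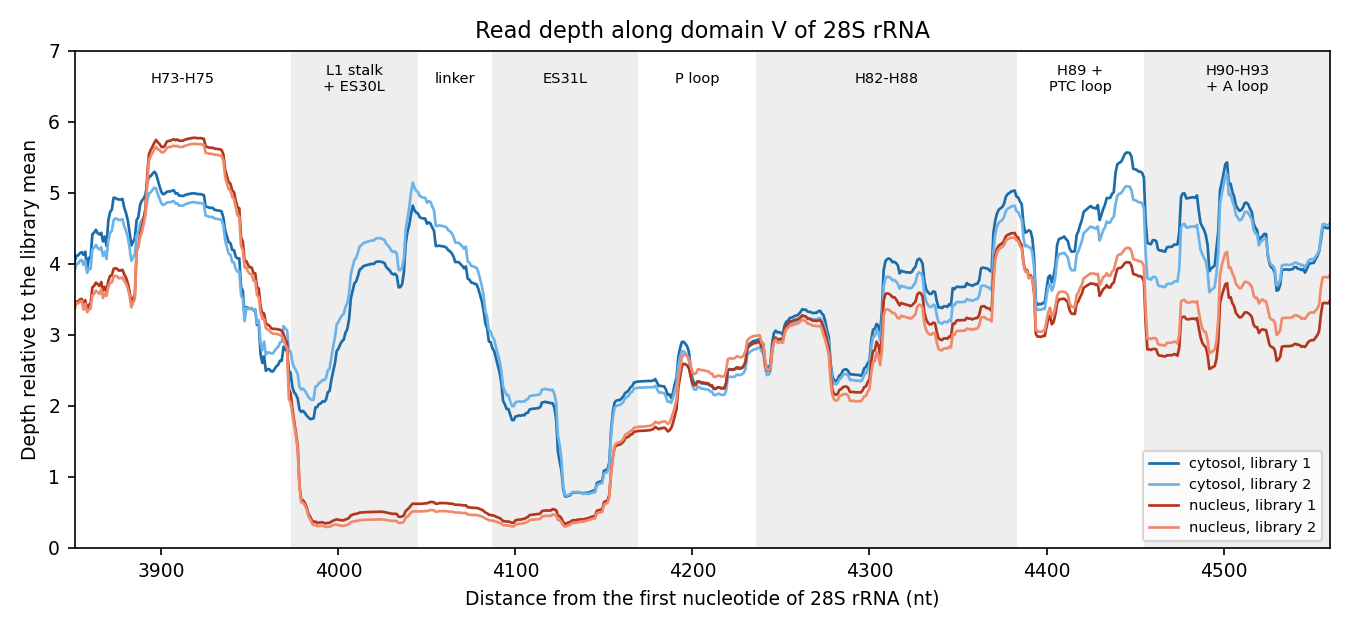
Relative depth (vertical axis, depth over the library mean) at each of the 710 positions of domain V (horizontal axis, nt from the first nucleotide of 28S) in the 4 libraries, with the 8 segments marked. The 2 nuclear lines run above the cytosolic ones near nt 3919, drop to 0.338 and 0.293 at their lowest, and rejoin them in the P loop segment.

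The part of domain V with the most nuclear depth lay at and just after the motif of the 5' strand of the peptidyl transferase loop. In the segment of H73 to H75, which brings the first strand into the catalytic loop, relative depth was 4.27 and 4.17 in the cytosol against 4.46 and 4.37 in the nucleus. Both nuclear values were above both cytosolic ones, but the log2 difference of 0.07 did not pass the test (95% interval -0.14 to 0.27, adjusted p = 0.425 from limma). It passed as a rise with scaling to 28S outside domain V (0.20, adjusted p = 0.0308 from limma) and with the median of ratios over segments (0.20, 0.0221). With medians over positions it turned to -0.16. The median of ratios over segments shifted each difference by 0.14 and left H82 to H88, itself in domain V, with no difference. It is therefore not a scaling taken outside domain V, here or for the other segments.

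Within this segment 4 windows fell and 6 rose, and its 3' windows may lie in the L1 stalk. The 4 windows from nt 3851 to 3890 were lower in the nucleus by 0.17 to 0.29 on the log2 scale. The 6 windows from nt 3901 to 3960 were higher by 0.20 to 0.26. At nt 3901 to 3910, which holds the motif GAAGACC, relative depth was 5.002 and 4.85 in the cytosol against 5.72 and 5.64 in the nucleus (log2 difference 0.20, SE 0.04, adjusted p = 0.0217 from limma). The groups did not overlap there. The largest of these rises, at nt 3931 to 3940, was from 4.53 and 4.39 to 5.39 and 5.29 (0.26, SE 0.04, adjusted p = 0.0122 from limma). The windows that start at nt 3941, 3921, 3951 and 3911 rose by 0.25, 0.23, 0.22 and 0.22. Those that start at nt 3911, 3901 and 3921 were the 3 deepest of the domain in the nucleus, with 5.76 and 5.67 in the first.

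These rises were small. Their sizes stayed at 0.18 to 0.28 when each library was left out in turn, but many of the calls did not pass with 3 libraries. None of the 6 calls was left with the median of ratios over windows, where the motif window stood at -0.0098, or without either cytosolic replicate. Of the 6, 1 and 4 were left without nuclear replicate 1 and 2, and 1 was left once a cubic in G+C content, fitted over the windows of 18S, 5.8S and 28S, had been removed. The 4 lower calls at nt 3851 to 3890 fell to 0 without cytosolic replicate 1, and to 1 without cytosolic replicate 2, without nuclear replicate 2 and with scaling to 28S outside domain V. All 8 windows from nt 3891 to 3970 had a positive difference under the scaling used here, and both nuclear libraries had their deepest position of domain V there, at nt 3919 (5.78 and 5.69). The cytosolic libraries had theirs farther on, at nt 4445 (5.57) and nt 4502 (5.26).

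The L1 stalk segment with ES30L had 6.70-fold less depth in the nucleus than in the cytosol (95% interval 5.34 to 8.42). The L1 stalk is the mobile arm that binds the ribosomal protein uL1, and the segment named for it need not hold all of it. Relative depth was 3.21 and 3.53 in the cytosol against 0.544 and 0.464 in the nucleus. Both nuclear libraries were far below both cytosolic ones, and the log2 difference was -2.74 (SE 0.12, n = 2 per fraction, adjusted p = 1.07e-04 from limma). That fit was over 19 regions and segments, of which 31.6% were lower in the nucleus. This segment had a G+C content of 91.5%, the highest of the 8.

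The drop into this segment was abrupt in the nucleus and shallow in the cytosol. At nt 3970, before the segment, relative depth was 2.79 and 3.09 in the cytosol against 2.93 and 2.86 in the nucleus, and the fractions overlapped. From nt 3977 to the next base it fell by 0.71 on the log2 scale in both nuclear libraries, the largest fall between neighbouring positions there, against 0.11 in both cytosolic ones. At nt 3990 it stood at 2.03 and 2.33 in the cytosol against 0.357 and 0.309 in the nucleus. The cytosolic lines then climbed to 4.82 and 5.14 at nt 4042, where the nuclear ones stood at 0.622 and 0.516.

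The 5 windows with the largest falls of domain V adjoined one another from nt 4001 to 4050, across the end of the L1 stalk segment and the start of the linker. At nt 4031 to 4040 relative depth was 3.98 and 4.22 in the cytosol against 0.483 and 0.389 in the nucleus, a 9.40-fold difference and the largest of the domain (log2 difference -3.21, SE 0.13, adjusted p = 2.72e-04 from limma). The windows that start at nt 4021, 4011, 4001 and 4041 had differences of -3.19, -3.19, -3.14 and -3.08. These 5 windows were the ones with a ratio of at least 8 and all had libraries that did not overlap. The 12 windows with a ratio of at least 5 ran from nt 3991 to 4110.

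By its mean depth, the linker had the largest difference of the 8 segments. By medians over positions the L1 stalk segment had a larger one, -3.14 against -2.92 on the log2 scale. The linker is the run between the L1 stalk and ES31L segments as bounded here, printed in capitals above. Since no helix bounds were aligned, it may hold strands of the L1 stalk. Its relative depth was 3.99 and 4.25 in the cytosol against 0.589 and 0.485 in the nucleus. That is a 7.71-fold fall (95% interval 6.04 to 9.84, log2 difference -2.95, SE 0.13, adjusted p = 1.07e-04 from limma). In the cytosol the linker was about as deep as H73 to H75, with ratios of 0.935 and 1.02, whereas in the nucleus the ratios were 0.132 and 0.111. The log2 ratio differed by -3.01 (-0.03 ± 0.09 and -3.05 ± 0.18, SD, n = 2, exact permutation p = 0.333).

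G+C content was 46.5% in the linker and 30% to 80% in its windows. It was 53.7% in H73 to H75, 58.8% in the P loop segment and 51.4% in H82 to H88. The H89 segment had 53.4% and H90 to H93, the nearest to the linker, 45.7%. The linker lies between segments of 91.5% and 86.4%, and since reads cover many bases its depth is not independent of theirs. Over the 71 windows, which share these reads and libraries, the Pearson correlation of G+C content with the log2 difference was -0.44 and the Spearman correlation -0.38. After removal of the cubic in G+C, the 20 windows of the 3 segments were all lower, with differences of -3.19 to -0.35 in place of -3.21 to -0.45. The cubic used the G+C content of each window alone, so it cannot remove an effect of the G+C content of whole reads. The part of G+C content in the linker's difference was not tested.

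**Figure D3:**
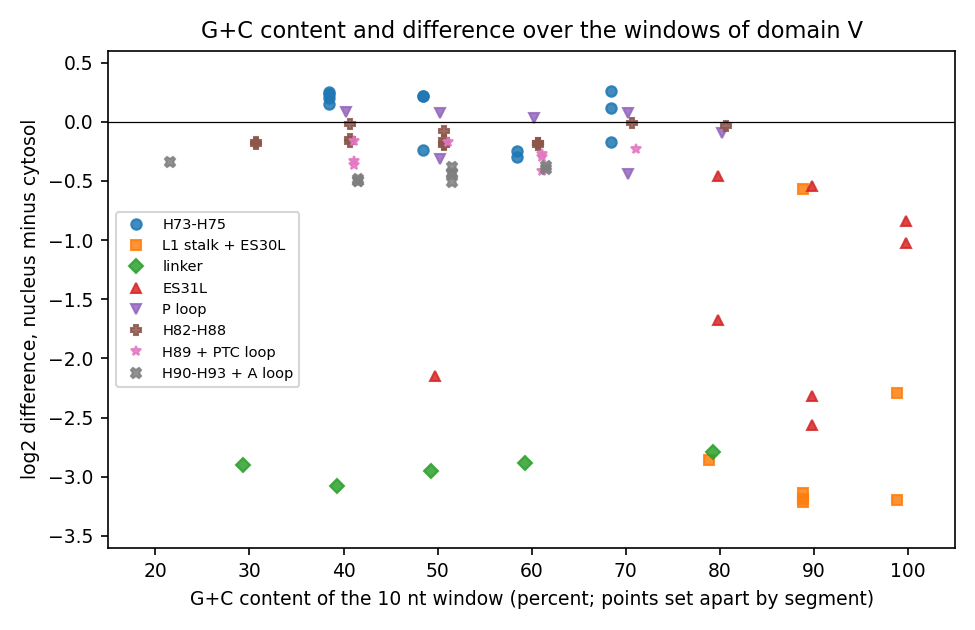
G+C content of each 10 nt window of domain V (horizontal axis, percent, with points of different segments set slightly apart) against its log2 difference, nucleus minus cytosol (vertical axis); symbols mark the 8 segments. The 5 linker windows lie between -3.08 and -2.79 over a G+C content of 30% to 80%, where those of H73 to H75, the P loop segment and H82 to H88 lie between -0.44 and 0.26. Those of the H89 segment lie between -0.42 and -0.16, and those of H90 to H93 between -0.51 and -0.34.

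ES31L, the variable extension of helix 79, had 2.67-fold less depth in the nucleus than in the cytosol (95% interval 2.29 to 3.11). Relative depth was 1.62 and 1.70 in the cytosol against 0.640 and 0.604 in the nucleus, with no overlap (log2 difference -1.42, SE 0.08, adjusted p = 2.45e-04 from limma). With medians over positions the log2 difference was -2.21. Unlike the linker it was also the thinnest segment of domain V in the cytosol. The lowest position of both cytosolic libraries was nt 4129, at 0.723 and 0.734, and nuclear replicate 1 had its lowest next to it, at nt 4128 (0.338). Nuclear replicate 2 had its lowest at nt 3993 in the L1 stalk segment (0.293).

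The difference narrowed from the 5' to the 3' end of ES31L. At nt 4091 to 4100 the log2 difference was -2.56, and at nt 4161 to 4170 it was -0.45. At nt 4131 to 4140, the window of lowest cytosolic depth, values were 0.772 and 0.774 in the cytosol against 0.393 and 0.359 in the nucleus (log2 difference -1.02, SE 0.11, adjusted p = 0.00368 from limma). The next lowest in the cytosol were nt 4141 to 4150 and nt 4121 to 4130. In the nucleus the 3 lowest windows were spread over the stretch. They start at nt 3991 (0.370 and 0.310), 4091 (0.377 and 0.321) and 4131.

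Within ES31L, the largest rise between neighbouring positions of domain V was at nt 4153 in the means of both fractions, by 0.46 on the log2 scale in each cytosolic library and 0.52 and 0.55 in the nuclear ones. After it depth was 1.65 and 1.60 in the cytosol against 1.07 and 1.05 in the nucleus, still apart. The largest cytosolic fall, at nt 4126, was 0.40 and 0.52 in the cytosol against 0.20 and 0.19 in the nucleus. The L1 stalk and ES31L segments together, over the other segments of domain V, had ratios of 0.610 and 0.680 in the cytosol against 0.189 and 0.169 in the nucleus, a log2 difference of -1.85 (exact permutation p = 0.333).

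**Figure D4:**
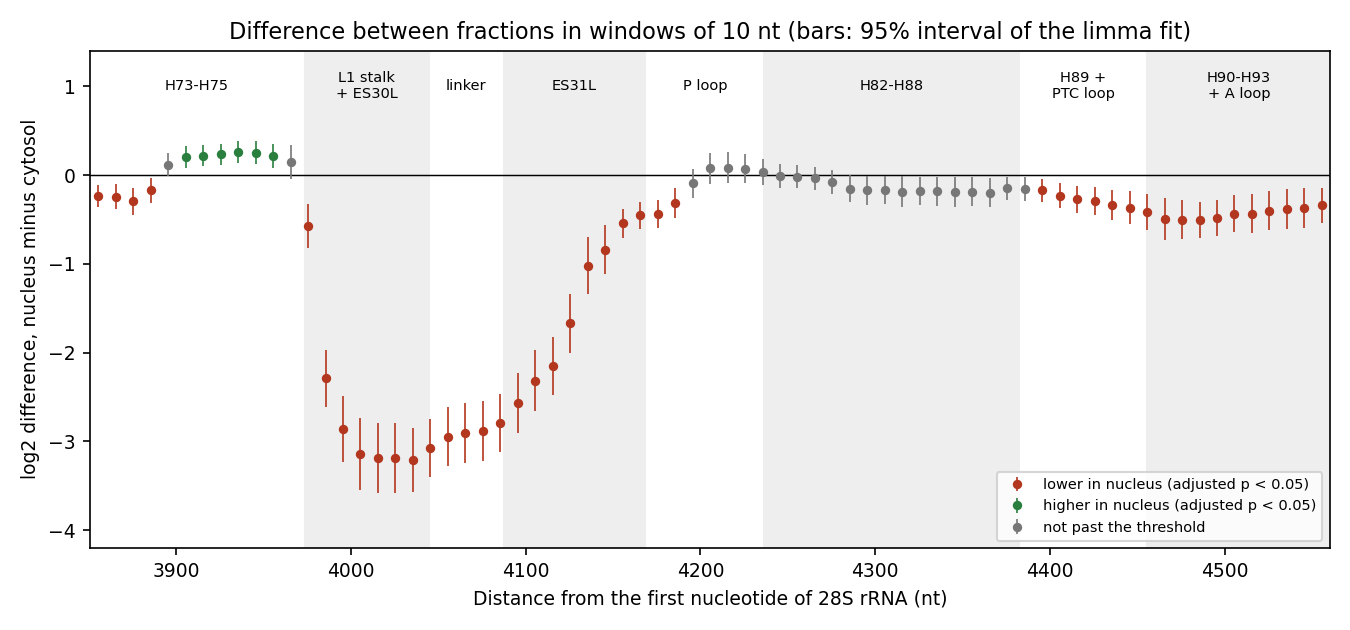
Log2 difference, nucleus minus cytosol (vertical axis), of the 71 windows of 10 nt along domain V (horizontal axis, nt from the first nucleotide of 28S), with 95% intervals of the limma fit as bars; colours mark the 43 windows lower, the 6 higher and the 22 not past the threshold. Differences drop to -3.21 at nt 4031 to 4040 and return to near 0 at nt 4191 to 4390.

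All 20 windows of the L1 stalk, linker and ES31L segments were lower in the nucleus. The same held, with 20 of 20 lower, under each alternative run at this width on all 4 libraries, including the fit with the replicate number as a block. With each library left out in turn all 20 differences stayed negative, from -3.36 to -0.43. Such a fit leaves 1 library in a fraction and so has no spread within it. Its p-values are not comparable with those from 4 libraries, here or elsewhere in the text.

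The P loop segment had close to the same depth in both fractions. The P loop base-pairs with the end of the P-site tRNA. Relative depth of the segment was 2.44 and 2.35 in the cytosol against 2.201 and 2.33 in the nucleus (log2 difference -0.08, 95% interval -0.30 to 0.14, adjusted p = 0.404 from limma). The difference turned to 0.06 with the median of ratios over segments, to 0.04 with medians over positions and to 0.05 with scaling to 28S outside domain V. Its first 2 windows, nt 4171 to 4190, were lower, and the 5 after them did not pass. The motif GGGGCGG lay across the windows at nt 4191 to 4200 (-0.09, adjusted p = 0.248 from limma) and nt 4201 to 4210 (0.08, 0.357).

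H82 to H88, the arm on the side of the 5S rRNA, gave 0 windows of 14 past the threshold in limma (10 at an unadjusted p under 0.05). Relative depth was 3.45 and 3.29 in the cytosol against 3.12 and 3.01 in the nucleus, with no overlap between the fractions and a log2 difference of -0.14 (95% interval -0.35 to 0.08, adjusted p = 0.178 from limma). Its windows ranged from -0.20 to -0.01. With the median of ratios over windows 10 of the 14 were lower, and with the cubic in G+C removed 9 were.

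The peptidyl transferase loop and H89, which guides the A-site tRNA end into place, were lower in the nucleus by a modest factor. The segment's relative depth was 4.63 and 4.35 in the cytosol against 3.64 and 3.76 in the nucleus, with no overlap, a 1.21-fold fall (95% interval 1.04 to 1.41, log2 difference -0.28, SE 0.08, adjusted p = 0.0427 from limma). The call ended without any 1 of the 4 libraries (adjusted p = 0.148 to 0.580), with the replicate block (0.0944), with medians over positions (0.0728), with the median of ratios (0.0958) and with scaling to 28S outside domain V (0.0794). In the window of the motif GGATAAC, nt 4391 to 4400, values were 3.72 and 3.60 in the cytosol against 3.22 and 3.27 in the nucleus (-0.17, SE 0.05, adjusted p = 0.0397 from limma). That call ended too when any 1 library was left out (adjusted p = 0.0915 to 0.209), with the replicate block (0.0665) and with scaling to 28S outside domain V (0.461). The motif ATGTCGG lay across 2 windows, nt 4441 to 4450 and nt 4451 to 4460, at -0.37 and -0.42 (adjusted p = 0.0137 and 0.0127 from limma). Without cytosolic replicate 1 their adjusted p was 0.0617 and 0.0536. The first of them was the deepest window of the cytosol, ahead of those that start at nt 3891 and 4501, at 5.47 and 5.02 against 3.96 and 4.16 in the nucleus.

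H90 to H93, with the A loop, had 1.36-fold less depth in the nucleus than in the cytosol (95% interval 1.14 to 1.62). The A loop base-pairs with the end of the A-site tRNA. Relative depth was 4.39 and 4.21 in the cytosol against 3.01 and 3.33 in the nucleus, with no overlap (log2 difference -0.44, SE 0.09, adjusted p = 0.0178 from limma). Without cytosolic replicate 1 or 2 or nuclear replicate 1 the adjusted p was 0.251, 0.166 or 0.0858, with the replicate block 0.0511 and with the median of ratios 0.0727. All 10 windows were lower, by 0.34 to 0.51. Of the 18 windows of the H89 and A loop segments together, 17 were called lower. That count was 3 without cytosolic replicate 1 and 9 without cytosolic replicate 2 or with scaling to 28S outside domain V, with all 18 differences negative in each. The motif TGTTCAC of the A loop lay across nt 4491 to 4500 (-0.49, adjusted p = 0.00871 from limma, 0.0580 without cytosolic replicate 1) and nt 4501 to 4510. At nt 4501 to 4510 values were 5.01 and 4.87 in the cytosol against 3.44 and 3.86 in the nucleus (-0.44, SE 0.07, adjusted p = 0.0120 from limma). Without cytosolic replicate 1 or 2 the adjusted p of that window was 0.0773 or 0.0607. The windows of H93, nt 4521 to 4550, had differences of -0.40, -0.38 and -0.38, and none of the 3 passed without cytosolic replicate 1 or 2 (adjusted p = 0.0876 to 0.106) or with scaling to 28S outside domain V (0.0671 to 0.0907).

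The H89 and A loop segments did not have the same ratio to H73 to H75 in the 2 fractions. These are ratios of whole segments and not of the strands of the peptidyl transferase loop. The depth of the H89 segment over that of H73 to H75 was 1.08 and 1.04 in the cytosol against 0.816 and 0.859 in the nucleus, a log2 difference of -0.34. For the A loop segment over H73 to H75 the ratios were 1.03 and 1.01 against 0.676 and 0.762, a log2 difference of -0.51. Both differences exceeded the spread within each fraction (SD 0.02 to 0.12, n = 2, exact permutation p = 0.333), and both ratios were chosen after the values were seen. With medians over positions they were -0.12 and -0.28.

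**Figure D5:**
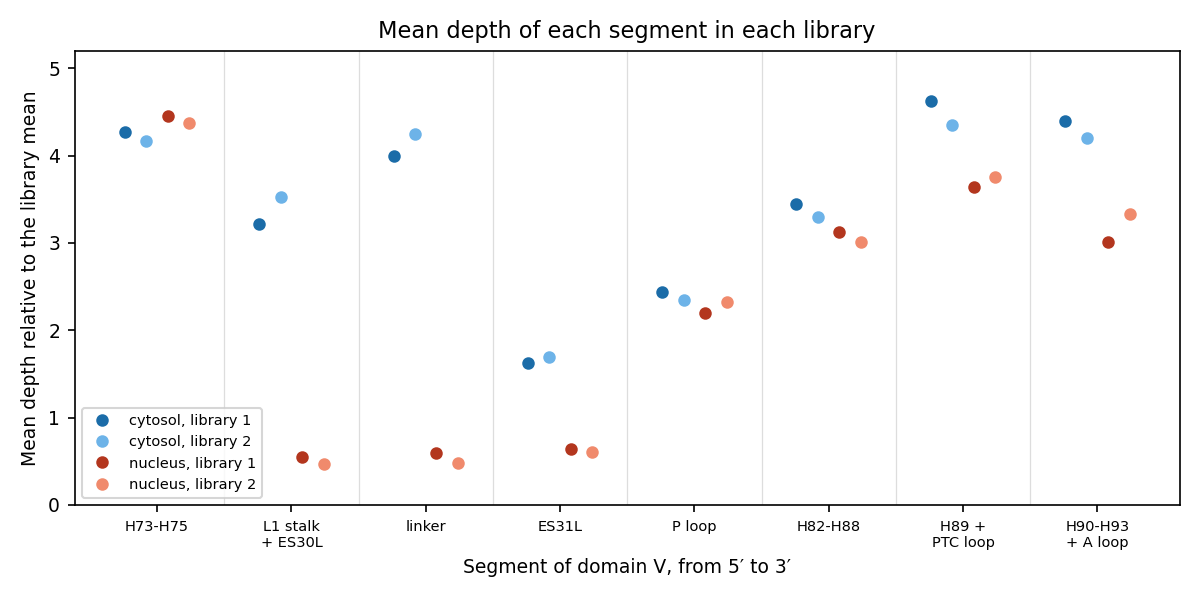
Mean relative depth (vertical axis) of the 8 segments of domain V, from 5' to 3', with 1 point for each of the 4 libraries. The nuclear points lie between 0.464 and 0.640 in the L1 stalk, linker and ES31L segments and between 2.201 and 4.46 in the others.

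Outside the low stretch the profiles of the fractions were more alike than within it. That stretch was set apart after its values were seen. Over the 51 windows of the other segments the Pearson correlation of mean cytosolic with mean nuclear relative depth was 0.77, and over the 20 windows of the L1 stalk, linker and ES31L segments it was -0.11. Between the fractions it was 0.61 over all 71 windows. Libraries of 1 fraction correlated at 0.98 or above, both over all 71 windows and over those 51. These are descriptions over neighbouring windows that share reads.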

How the data were processed

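The deposited values are coverage, a signal: whole-number read depth per reference position, per the file headers, with no scaling. Adapter trimming with cutadapt 1.5, and Bowtie2 2.2.6 and SAMtools, are named in the submitters' processing notes. Libraries were directional. What settings, read filters and strand rule were used is not given in the sources used here. Copies of rDNA are not separated.

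Depth was divided by the library mean. Windows of 10 nt were tiled both ways from the ends of domain V, and kept where 2 or more libraries had a mean depth of 10 or more. They were tested with limma 3.58.1 in R 4.3.3 (lmFit, eBayes with a variance trend, two-sided, Benjamini-Hochberg over all windows, threshold 0.05). Regions and segments were tested by limma without trend on log2 mean relative depth, and ratios by two-sided exact permutation tests, 10 in all (adjusted p = 0.333 for each). The window test was first tested on simulated data with known changes.

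The text names every segment, the 5 windows with the largest fall and the 5 with the largest rise among called windows without overlap, the 3 deepest and 3 thinnest windows per fraction, the motif windows and the largest steps between neighbouring positions. Other windows and positions were chosen after their values were seen. Members, segments and tests were chosen with earlier results of these data known.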

Additional observations from a re-analysis of the deposited data

How the results depend on the processing

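Calls on small differences moved with the library left out, the scaling and the depth filter. With windows kept at a minimum depth of 100, 50 of 71 were lower instead of 43, and 7 of 14 in H82 to H88 instead of 0. The window of GGATAAC then had an adjusted p of 0.0505 in limma. Over all windows tested 28.4% were lower and 44.7% higher at that depth, against 18.1% and 37.1%. Of the 71 windows of domain V, 60.6% were lower in the nucleus, and 43.7% to 76.1% were under the 12 alternatives in scaling, pseudocount, width, filter, trend, medians, G+C and block. With each library left out the share was 33.8% to 54.9%. The 8.45% of windows that were higher became 0 with the median of ratios and with windows of 100 nt, 1.41% with the cubic in G+C removed, and 0 to 5.63% with a library left out. Over all windows tested, 11.6% to 36.5% were lower under the 12 alternatives, against 18.1%. The higher share over all windows was 28.3% with the median of ratios, 37.0% with windows of 100 nt and 22.8% with the cubic removed. The domain V difference of -0.43 was -0.56 to -0.36 under the other alternatives and -0.44 to -0.42 with a library left out. Its ratio to the rest of 28S was -0.33 to -0.29, and that of the L1 stalk and ES31L segments to the others -2.02 to -1.77.

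The replicate numbers are not said to pair the libraries, and the deviations of same-numbered libraries correlated at 0.09 over all windows tested and at -0.66 over those of domain V. With the replicate number as a block 63.4% of windows were lower and 8.45% higher, and the domain V difference kept an adjusted p of 0.0471 in limma.

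Signs turned for values near 0. With the median of ratios the windows that start at nt 3891, 3901 and 4201 stood at -0.097, -0.0098 and -0.14, and with the cubic in G+C removed the last stood at -0.036. With scaling to 28S outside domain V the window at nt 4191 to 4200 stood at 0.039 and the P loop segment at 0.050. The P loop segment was 0.055 with the median of ratios and 0.043 with medians over positions. With medians, H73 to H75 stood at -0.16, and the linker over the L1 stalk segment, at -0.20 with means, stood at 0.22. The median of ratios moved window differences by -0.21 and segment differences by 0.14, since it was taken over different features. The cause of each was not tested.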
